A study of Rattus norvegicus with 12 samples.

Results

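The interferon response and antigen presentation genes are a list of 34 rat genes, found by gene symbol in a table of 30454 genes, and their levels were compared between 3 groups of cells. All cells carried the label PC12, a rat adrenal chromaffin tumour line, and oxygen-glucose deprivation followed by reoxygenation was common to all 3 groups. OGDR cells had nothing further, MSCs cells also received mesenchymal stem cells, and rTMS-MSCs cells received the stem cells together with 10 Hz repetitive transcranial magnetic stimulation. Each group had 4 libraries of bulk messenger RNA, and the series text places the measurement 48 h after treatment. Cells without deprivation, and cells stimulated without stem cells, were not analysed here. The labels give neither the species of the stem cells nor the way they met the labelled cells, and nothing in them tells whether the 4 libraries of 1 group came from different cultures. The p-values therefore measure only the spread between these samples, which may be technical. Of the 34 symbols, 33 had a row, 1 of these had no count in any library, 3 had too few counts to test, and 29 were tested. Library totals ran from 18246250 to 20471838 counts.

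Interferons are secreted when a cell senses foreign or misplaced nucleic acid. Their receptors activate a complex that holds the factors STAT2 and IRF9 and binds an element called ISRE (interferon-stimulated response element) in the promoters of interferon-stimulated genes. The products of these genes block viral replication, tag proteins with ISG15, or feed peptides to major histocompatibility complex (MHC) class I molecules for display to T cells. Glial and tumour cells are known to express many of them at a low tonic level without infection, and ischaemic injury of nervous tissue is known to raise some.

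The marker genes were read off as a check of the label. Of 12 chromaffin genes 10 averaged under 1 CPM (counts per 1000000, on scaled library sizes), and Ddc and Hand2 were among those with no count. Sox10, the regulator of the Schwann cell lineage, averaged 397 CPM over the 12 libraries. The label is thus not borne out by the defining markers of chromaffin cells, and the cells are called by their label only. Of 12 macrophage genes 10 averaged under 1 CPM, and Adgre1, Cd163, C1qa and C1qb had no count. The summed macrophage list ran from 51.9 to 59.9 CPM in OGDR, from 51.3 to 66.8 CPM in MSCs and from 64.4 to 78.0 CPM in rTMS-MSCs. Most of that sum was Cd14, the lipopolysaccharide co-receptor, at a mean of 58.4 CPM, while the pan-leukocyte gene Ptprc averaged 0.0204 CPM. Of 7 lymphocyte genes with a row, 4 averaged under 1 CPM and Cd8a had no count. Their sum ran from 4.82 to 7.21 CPM in OGDR, from 4.39 to 5.54 CPM in MSCs and from 4.48 to 7.32 CPM in rTMS-MSCs. In bulk RNA fewer cells of a type and less RNA per cell cannot be told apart.

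A sequence shared by many of the members is the ISRE core, written GAAANNGAAA, and it was searched on both strands in windows from 250 bases before to 50 bases after each gene's start (RefSeq, build GRCr8). The list was put together from known interferon genes, so a high share of the core is part of what the list is. Of the 27 members with an entry, 16 (59.3%) held at least 1 match, against 1312 of 33469 windows of that length (3.92%). The motif TTCNNNGAA, known as GAS, was held by 5 members (18.5%) and by 8.87% of all windows. The members without an entry were Isg15, Ifit1, Ifit2, Mx2, Dhx58, Usp18 and Cgas. A match describes the letters only. The 250 bases before the start are shown for 6 members whose levels differed in contrasting ways, each from 5′ to 3′ along the gene's strand, with ISRE core matches in capitals.
Oas1a, chr12:41330216-41330465, plus strand: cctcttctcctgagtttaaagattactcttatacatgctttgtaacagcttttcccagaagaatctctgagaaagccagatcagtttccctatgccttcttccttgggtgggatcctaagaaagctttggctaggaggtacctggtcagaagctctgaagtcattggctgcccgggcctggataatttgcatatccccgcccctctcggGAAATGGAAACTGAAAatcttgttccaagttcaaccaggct
Ifit3, chr1:241527076-241527325, plus strand: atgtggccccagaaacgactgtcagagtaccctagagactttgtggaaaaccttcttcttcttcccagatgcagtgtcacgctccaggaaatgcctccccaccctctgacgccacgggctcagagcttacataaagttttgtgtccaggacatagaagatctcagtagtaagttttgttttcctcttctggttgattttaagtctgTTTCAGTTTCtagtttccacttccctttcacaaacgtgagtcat
Rsad2, chr6:48788121-48788370, minus strand: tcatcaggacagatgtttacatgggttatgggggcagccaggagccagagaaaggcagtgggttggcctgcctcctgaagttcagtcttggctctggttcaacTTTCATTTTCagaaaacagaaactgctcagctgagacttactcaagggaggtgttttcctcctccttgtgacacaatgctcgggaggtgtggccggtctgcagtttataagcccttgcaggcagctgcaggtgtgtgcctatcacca
Bst2, chr16:18254968-18255217, minus strand: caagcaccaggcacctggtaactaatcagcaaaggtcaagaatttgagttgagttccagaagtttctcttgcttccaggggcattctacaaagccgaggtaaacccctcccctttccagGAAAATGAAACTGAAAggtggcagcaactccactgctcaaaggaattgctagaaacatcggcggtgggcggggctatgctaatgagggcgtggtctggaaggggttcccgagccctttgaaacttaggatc
B2m, chr3:129549080-129549329, plus strand: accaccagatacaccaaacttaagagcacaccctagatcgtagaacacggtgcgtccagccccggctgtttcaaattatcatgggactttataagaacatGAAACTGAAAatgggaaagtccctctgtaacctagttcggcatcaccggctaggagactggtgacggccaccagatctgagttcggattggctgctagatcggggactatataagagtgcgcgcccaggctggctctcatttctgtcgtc
Stat2, chr7:1286840-1287089, plus strand: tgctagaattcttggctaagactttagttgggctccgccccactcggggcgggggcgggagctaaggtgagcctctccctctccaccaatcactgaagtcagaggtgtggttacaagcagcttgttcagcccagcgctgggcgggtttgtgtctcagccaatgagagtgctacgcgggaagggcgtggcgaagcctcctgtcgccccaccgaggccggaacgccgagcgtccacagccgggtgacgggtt
Counting the last base before the start as -1, the Oas1a window held 2 overlapping cores at -41 to -32 and -35 to -26. A GAS match in the Oas1a window lay apart from them, at -199 to -191. Bst2 likewise held 2 overlapping cores, at -131 to -122 and -125 to -116, and a GAS match at -137 to -129 that overlapped the farther core. The same letters GAAACTGAAA occurred in Oas1a, Bst2 and B2m, and as their reverse complement TTTCAGTTTC in Ifit3. The core of Rsad2 read TTTCATTTTC, as did that of Irf7. The Stat2 window held no match.

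Levels of the tested members are shown next by library, and all of them differed between groups by less than 2-fold.

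**Figure D1:**
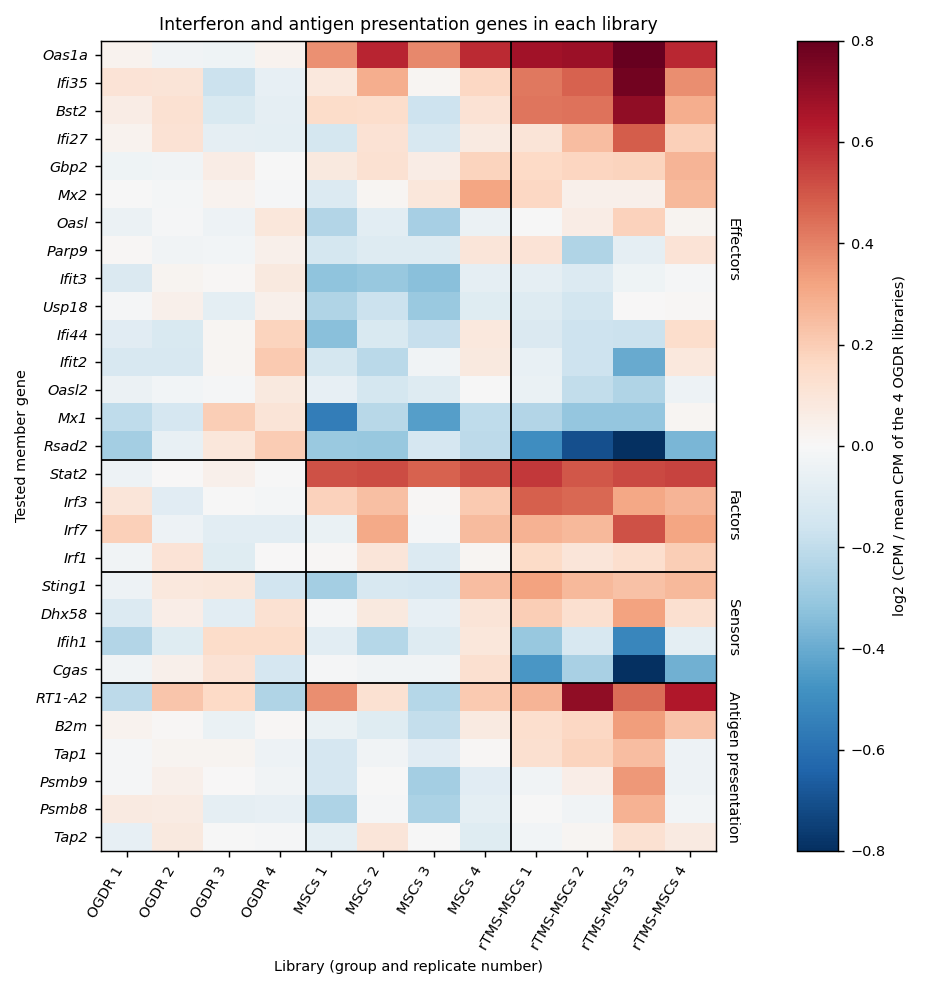
Level of each of the 29 tested members (rows, grouped by role) in each of the 12 libraries (columns), as log2 of the CPM over the mean CPM of the 4 OGDR libraries; red is higher and blue lower, with the colour scale ending at 0.8 in each direction. Oas1a and Stat2 are higher in all 8 libraries with stem cells, while Rsad2 and Cgas are lowest in rTMS-MSCs 3.

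The MSCs group was compared with OGDR to see which interferon genes differed once stem cells were added. Stat2 and Oas1a rose, and Ifit3, Mx1 and Usp18 fell, while the other 24 tested members did not pass. The 5 of 29 members called (17.2%) compare with 20.2% of all 13692 tested genes (11.6% higher and 8.63% lower), and with 23.5% of the 10608 tested genes at a mean of 5 CPM or more, where 28 of the 29 members stood. The share is thus near the background. The median log2 fold change of the members was -0.06 against -0.00 over all tested genes. The groups did not overlap for 4 members, against 24.7% of all tested genes. The summed Schwann and glial marker list also differed, from 1028 to 1122 CPM in OGDR and from 1245 to 1327 CPM in MSCs. So did the endothelial list, from 167.9 to 193.4 CPM in OGDR and from 154.5 to 166.6 CPM in MSCs. Of its 4 tested genes, Flt1 fell from a mean of 74.6 to 59.0 CPM, Tek rose from 10.0 to 13.2 CPM and 2 did not pass. The summed stromal list overlapped, from 573.3 to 608.9 CPM in OGDR and from 559.5 to 622.4 CPM in MSCs. Of its 10 tested genes 3 rose, 1 fell and 6 did not pass (40% called, against 20.2% of all). Nt5e and Pdgfrb were among the risers (0.73 ± 0.117 and 0.47 ± 0.0765), and Twist1 fell (-0.32 ± 0.0986). Mitochondrial transcripts made up 3.29 to 3.73% of counts in OGDR and 2.56 to 3.05% in MSCs, and ribosomal protein transcripts 2.88 to 3.12% and 2.44 to 2.69%. The part of these in the results was not tested.

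Stat2, the partner of IRF9 in the ISRE-binding complex, had the smallest adjusted p of the members. Its level was 179, 185, 190.2 and 184 CPM in OGDR 1 to 4, 262, 265, 256 and 264 CPM in MSCs 1 to 4 and 273, 260.3, 267 and 269 CPM in rTMS-MSCs 1 to 4. Every library with stem cells lay above every OGDR library, and the treated groups overlapped each other. Stat2 rose by 0.50 ± 0.0461 on the log2 scale in MSCs (± SE here and below; QL test, that is edgeR's quasi-likelihood test, with Benjamini-Hochberg adjustment across the tested genes, adjusted p = 6.43e-08). Against MSCs the stimulated cells stood at 0.03 ± 0.0458 (adjusted p = 0.683).

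Oas1a, an oligoadenylate synthetase that activates RNase L on double-stranded RNA, stood at 48.4, 46.6, 46.4 and 48.4 CPM in OGDR 1 to 4. It stood at 61.2, 72.5, 61.8 and 71.7 CPM in MSCs 1 to 4 and at 75.7, 76.2, 95.4 and 72.1 CPM in rTMS-MSCs 1 to 4. OGDR lay below all other libraries, and rTMS-MSCs 4 fell within the range of MSCs. Oas1a rose by 0.49 ± 0.0851 in MSCs (adjusted p = 0.000216, QL test). Oas1a has close paralogs, so reads from them may be split with uncertainty. Of these, Oas1i stood at 20.6, 23.0 and 26.6 CPM in OGDR, MSCs and rTMS-MSCs, and rose in rTMS-MSCs against OGDR (0.37 ± 0.101, adjusted p = 0.00860); it was named after its values were seen. So were Oas3 and Oas1k, 2 further synthetases at the edge of detection, which rose with stem cells. Oas3 ran from 0 to 0.241 CPM in OGDR and from 0.770 to 1.52 CPM in MSCs (adjusted p = 0.00119), and Oas1k from 0 to 0.260 and from 0.462 to 1.25 CPM (adjusted p = 0.00178). No fold is given for either, since OGDR libraries at 0 to a few counts do not fix one.

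The members that fell with stem cells were effectors. Ifit3, a scaffold of antiviral signalling, stood at 337, 372, 368 and 386 CPM in OGDR, at 292, 297, 290.0 and 348 CPM in MSCs and at 349, 339, 357 and 363 CPM in rTMS-MSCs. MSCs 4 was the high library of its group and overlapped OGDR 1, the low library of its own. Ifit3 fell by 0.25 ± 0.0604 (adjusted p = 0.00431). Usp18, the protease that removes ISG15 and damps the interferon receptor, went from 99.0 ± 3.81 to 86.2 ± 5.25 CPM (mean ± SD, n = 4; -0.20 ± 0.0617, adjusted p = 0.0256), with no overlap. The GTPase Mx1, which traps viral nucleocapsids, went from 43.9 ± 5.76 to 34.5 ± 4.09 CPM (-0.35 ± 0.105, adjusted p = 0.0225), with the groups just meeting at 38.2 CPM. Its paralog Mx2 stood at 102 and 109 CPM (adjusted p = 0.474). Oasl, an oligoadenylate synthetase-like protein, was lower in all 4 MSCs libraries (723 to 839.7 CPM) than in OGDR (841 to 927 CPM), and missed the threshold (-0.16 ± 0.0575, adjusted p = 0.0617).

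Some of these calls were lost when 1 library was left out. Stat2, Oas1a and Ifit3 passed in each of the 18 alternative fits. Mx1 did not pass without OGDR 3, OGDR 4, MSCs 1 or MSCs 3 (adjusted p = 0.0929, 0.0739, 0.0958 and 0.0637). Usp18 did not pass without OGDR 1, OGDR 2, OGDR 4, MSCs 1 or MSCs 3 (adjusted p = 0.0502, 0.0757, 0.0651, 0.0742 and 0.0829). The number of members called was 3 without OGDR 4, without MSCs 1 or without MSCs 3. It was 9 without MSCs 3 and rTMS-MSCs 3 together, when Irf3, Ifi35 and Gbp2 rose and Rsad2 fell as well.

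**Figure D2:**
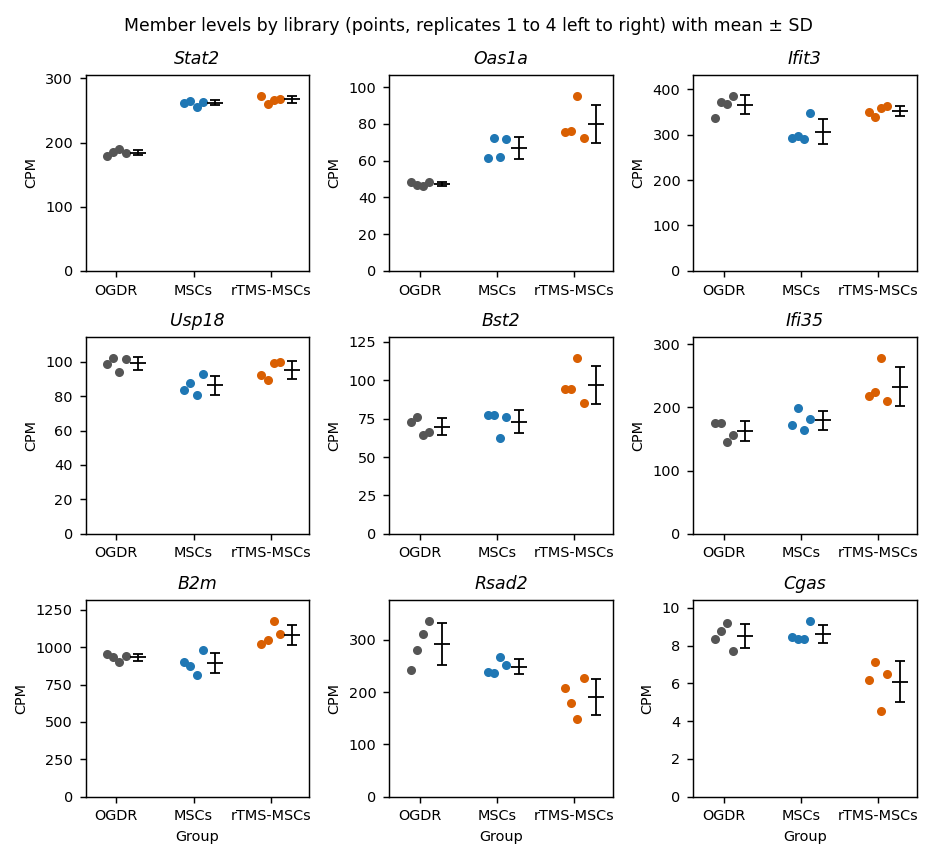
CPM (vertical axis, from 0) of 9 members in each library, by group (horizontal axis; points are replicates 1 to 4 from left to right, bars the mean ± SD, n = 4). Stat2 and Oas1a are higher in both groups with stem cells, Bst2, Ifi35 and B2m are highest in rTMS-MSCs, Rsad2 and Cgas are lowest there, and Ifit3 is lowest in MSCs.

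More members passed on adding stimulation to the stem cells than on adding the stem cells (11 and 5), an order that reversed to 3 and 9 without MSCs 3 and rTMS-MSCs 3. Against MSCs, 9 of 29 members rose in rTMS-MSCs (Bst2, Ifi35, B2m, Ifi27, Oas1a, Oasl, Irf3, Ifit3 and Tap1) and 2 fell (Rsad2 and Cgas). The 11 called (37.9%) compare with 18.1% of all tested genes and 22.1% of those at 5 CPM or more. Of all tested genes 7.14% rose and 10.9% fell, so the split between directions ran the other way. The median log2 fold change was 0.17 over the members and 0.02 over all tested genes. The groups did not overlap for 8 members, 6 up and 2 down, against 19.0% of all tested genes.

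Bst2, also called tetherin, holds budding viruses at the cell surface. It stood at 72.8, 76.0, 64.3 and 66.3 CPM in OGDR 1 to 4, at 77.2, 77.1, 62.2 and 75.8 CPM in MSCs 1 to 4 and at 94.1, 94.4, 114 and 85.3 CPM in rTMS-MSCs 1 to 4. The stimulated libraries lay above all 8 others, which overlapped, with rTMS-MSCs 3 the highest and MSCs 3 the lowest of their groups. Bst2 rose by 0.41 ± 0.0881 (adjusted p = 0.00505, QL test).

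Ifi35, an interferon-induced leucine zipper protein, stood at 176, 175, 145 and 156 CPM in OGDR, at 172, 199, 164 and 182 CPM in MSCs and at 218, 225, 278 and 211 CPM in rTMS-MSCs. All 4 stimulated libraries were above every other library. Ifi35 rose by 0.37 ± 0.0839 (adjusted p = 0.00609). Its binding partner Nmi, which is no member, fell in MSCs (-0.30 ± 0.0826, adjusted p = 0.0124) and rose in rTMS-MSCs against MSCs (0.26 ± 0.0827, adjusted p = 0.0335); it was named after its values were seen.

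B2m, the invariant light chain of MHC class I, stood at 953, 938, 900.0 and 940.3 CPM in OGDR, at 899, 873, 816 and 979 CPM in MSCs and at 1023, 1047, 1175 and 1090.4 CPM in rTMS-MSCs. Here too no stimulated library overlapped the other groups, with rTMS-MSCs 3 the highest. B2m rose by 0.28 ± 0.0561 (adjusted p = 0.00327). Bst2, Ifi35 and B2m were the 3 members that passed this step in each of the 18 alternative fits.

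The remaining rises were smaller or less stable. Ifi27, a small mitochondrial protein of unclear antiviral role, went from 497 ± 45.9 to 602 ± 70.1 CPM (0.28 ± 0.0756, adjusted p = 0.0172), and did not pass without MSCs 1 or MSCs 3 (adjusted p = 0.0665 and 0.0674). Oasl went from 780.1 ± 57.9 to 909.9 ± 52.9 CPM (0.22 ± 0.0575, adjusted p = 0.0131), with no overlap, and missed the threshold without MSCs 1 or MSCs 3 (adjusted p = 0.0516 and 0.0566). Ifit3 rose by 0.20 ± 0.0604 (adjusted p = 0.0287) and did not pass without MSCs 1, MSCs 2 or MSCs 3 (adjusted p = 0.0902, 0.0623 and 0.0998). Oas1a rose by 0.26 ± 0.0838 (adjusted p = 0.0394), but not without MSCs 1, MSCs 3, rTMS-MSCs 2 or rTMS-MSCs 3 (adjusted p = 0.124, 0.127, 0.0577 and 0.149) or with only the 8 libraries compared (adjusted p = 0.0773). Since the steps share the MSCs libraries, a low value there gives a fall in the earlier step and a rise in this one.

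Irf3, the factor that sensors of nucleic acid switch on by phosphorylation, stood at 51.9, 54.1, 46.0 and 52.9 CPM in MSCs and at 63.8, 62.8, 56.8 and 55.4 CPM in rTMS-MSCs. The groups did not overlap, and Irf3 rose by 0.22 ± 0.0743 (adjusted p = 0.0452). That call was lost without MSCs 1, MSCs 3, MSCs 4, rTMS-MSCs 1 or rTMS-MSCs 2 (adjusted p = 0.0865, 0.162, 0.0559, 0.114 and 0.121), with no filter (0.0642) and with only the 8 libraries compared (0.0721), and Irf3 passed in 9 of 18 alternative fits. Tap1, a subunit of the peptide transporter, rose by 0.19 ± 0.0628 (adjusted p = 0.0390) with overlapping groups (90.5 to 100.3 CPM in MSCs, 96.8 to 118 CPM in rTMS-MSCs). It did not pass without MSCs 1, 2 or 3 (adjusted p = 0.119, 0.0510 and 0.105) or without rTMS-MSCs 1, 2 or 3 (adjusted p = 0.0636, 0.0996 and 0.114), with no filter (0.0552) or with only the 8 libraries compared (0.0822), and passed in 8 of 18 fits.

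Rsad2, or viperin, makes a chain-terminating nucleotide and is usually among the genes most raised by interferon. It stood at 242, 280.3, 311 and 336 CPM in OGDR 1 to 4, at 238, 237, 267 and 252 CPM in MSCs 1 to 4 and at 207, 179.5, 148 and 226 CPM in rTMS-MSCs 1 to 4. The stimulated libraries lay below all 8 others, rTMS-MSCs 3 the lowest, and the OGDR libraries spread widely. Rsad2 fell by 0.39 ± 0.104 (adjusted p = 0.0159, QL test), and missed the threshold without MSCs 3 or rTMS-MSCs 2 (adjusted p = 0.0627 and 0.0511). Its adjoining gene Cmpk2, a nucleotide kinase, stood at 201, 188 and 176 CPM in the 3 groups and fell in rTMS-MSCs against OGDR (-0.19 ± 0.0560, adjusted p = 0.0120); it was named after its values were seen.

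Cgas, the sensor of cytosolic DNA, stood at 8.33, 8.77, 9.21 and 7.74 CPM in OGDR, at 8.46, 8.36, 8.34 and 9.30 CPM in MSCs and at 6.17, 7.11, 4.56 and 6.52 CPM in rTMS-MSCs. All stimulated libraries were below the others, and rTMS-MSCs 3 was the lowest. Cgas fell by 0.50 ± 0.140 (adjusted p = 0.0199), and missed the threshold without rTMS-MSCs 3 (adjusted p = 0.0795). Sting1, the adaptor downstream of Cgas, had a mean of 9.81 CPM in MSCs and 12.3 CPM in rTMS-MSCs (0.33 ± 0.121, adjusted p = 0.0627). The RNA sensor Ifih1 stood at 54.4 and 48.3 CPM (adjusted p = 0.248), and its regulator Dhx58 at 46.0 and 51.7 CPM (adjusted p = 0.120). None of these 3 passed by the QL test, although Sting1 passed with DESeq2 and with limma.

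The count of this step rested on few libraries. It was 4 without MSCs 3 (Bst2, Ifi35 and B2m up, Cgas down), 5 without MSCs 1, 7 without rTMS-MSCs 2, and 3 without both MSCs 3 and rTMS-MSCs 3. Calls over all tested genes went the same way, from 2475 to 1006, 1313, 1668 and 677. MSCs 3 was the lowest MSCs library for 15 of the 29 members, and MSCs 4 the highest for 16. In its group rTMS-MSCs 3 was the highest for 12 and the lowest for 8, rTMS-MSCs 4 the highest for 12 and rTMS-MSCs 2 the lowest for 9. Ribosomal protein transcripts made up 2.44% of counts in MSCs 3 and 3.49% in rTMS-MSCs 3, the ends of the range over all libraries. The summed stromal marker list ran from 559.5 to 622.4 CPM in MSCs and from 459.8 to 569.6 CPM in rTMS-MSCs. Of its 10 tested genes, Pdgfra and Prrx1 fell (-0.27 ± 0.0654 and -0.38 ± 0.0952), Twist1 rose (0.29 ± 0.0987) and 7 did not pass. The part of these differences in the result was not tested.

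**Figure D3:**
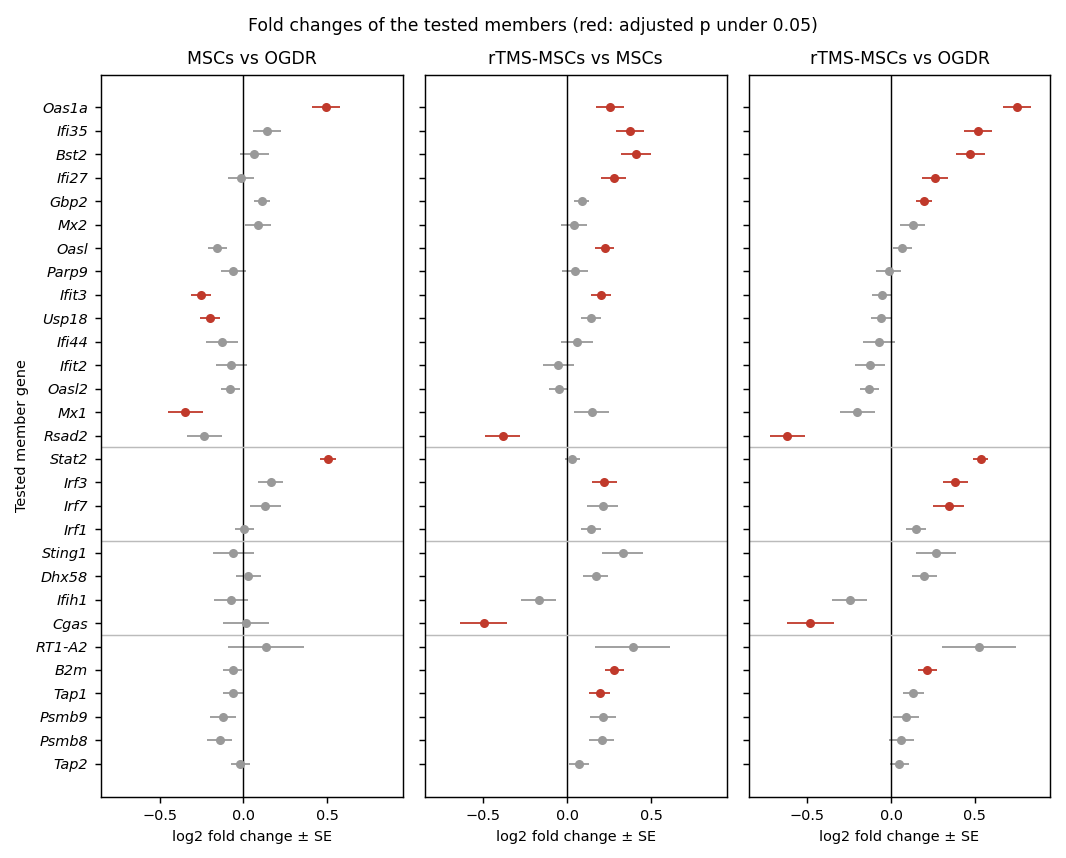
log2 fold change ± SE (horizontal axis) of the 29 tested members (vertical axis, grouped by role) in the 3 comparisons, red where the adjusted p was under 0.05. In MSCs against OGDR 5 points are red, 2 of them to the right of 0; in each of the other comparisons 11 are red, 9 of them to the right.

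The genomic length of the genes moved with this step. Genomic span, introns included, was taken from RefSeq (GRCr8) for 12118 of the tested genes (88.5%) and for all 29 tested members, and the genes were put in 5 equal bins by span. In rTMS-MSCs against MSCs the median log2 fold change over all genes went from 0.165 in the shortest bin (up to 7.56 kb) to -0.165 in the longest. In the shortest bin 17.6% of genes rose and 2.1% fell, and in the longest 1.44% rose and 29.6% fell. Of the members 12 were in the shortest bin, 11 in the next and none in the longest. The median of the 12 was 0.22, 5 of them rose, and the median of the 11 was 0.09, against 0.09 for all genes of that bin. In that second bin 4 of the 11 members rose and 2 fell, where 9.78% of all genes rose and 3.47% fell. The risers Tap1, Oas1a and Oasl (10.4, 10.7 and 13 kb) lie in it with Ifi35 (8.25 kb), as do Rsad2 and Cgas, which fell (13.3 and 15 kb), while Bst2 and B2m (4.38 and 6.12 kb) lie in the shortest. The same gradient stood in rTMS-MSCs against OGDR, with medians from 0.126 in the shortest bin, where 22.2% rose and 6.52% fell, to -0.135 in the longest. In MSCs against OGDR the medians of the bins ran only from -0.03 to 0.04. The part of span in the members' changes was not tested.

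**Figure D4:**
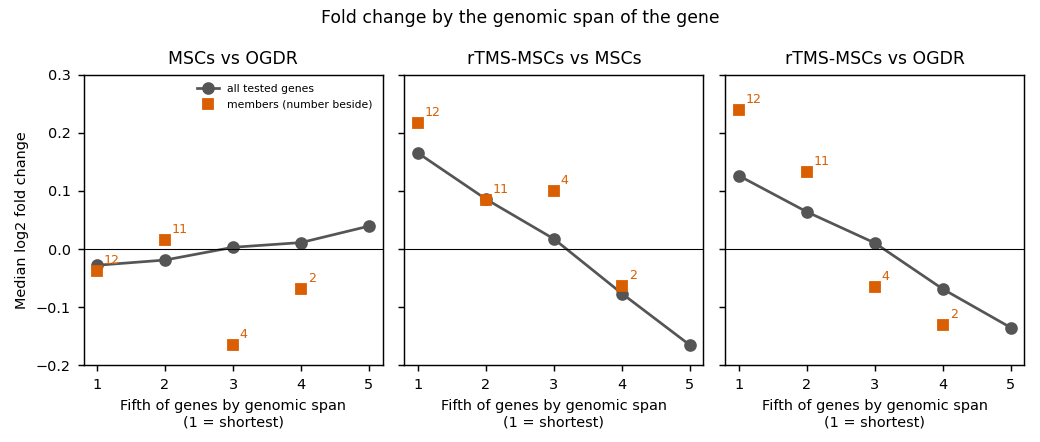
Median log2 fold change (vertical axis) of all tested genes with a span (grey) and of the members (orange, with their number) in each of 5 equal bins of genes by genomic span (horizontal axis, 1 is the shortest), for the 3 comparisons. In rTMS-MSCs against MSCs the grey medians go from 0.165 to -0.165, and the members lie in the 4 shorter bins.

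The stimulated cells with stem cells were also set against untreated deprived cells, the libraries of both groups being shared with the steps above. Oas1a, Stat2, Ifi35, Bst2, Irf3, Irf7, Ifi27, B2m and Gbp2 rose and Rsad2 and Cgas fell, 11 of 29 members (37.9%) against 32.4% of all tested genes and 37.7% of those at 5 CPM or more. The count is near the background, and its split is 9 up to 2 down where all genes had 16.2% in each direction, and the gradient by span given above holds in this comparison too. The groups did not overlap for 14 members, 12 up and 2 down, against 30.3% of all tested genes. The median log2 fold change was 0.13 over the members and 0.01 over all. Of the 11 calls, 10 passed in each of the 18 alternative fits, and Cgas did not pass without rTMS-MSCs 3 (adjusted p = 0.0518) or without both MSCs 3 and rTMS-MSCs 3 (adjusted p = 0.0546).

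Oas1a gave the largest fold among the members here, from 47.5 ± 1.11 to 79.8 ± 10.5 CPM (mean ± SD, n = 4; 0.75 ± 0.0848, adjusted p = 1.08e-06, QL test). Rsad2 went from 292 ± 40.5 to 190.2 ± 34 CPM (-0.62 ± 0.104, adjusted p = 0.000131). Both windows hold the ISRE core, and the genes stood at opposite ends of the list. Stat2 rose by 0.53 ± 0.0461, Ifi35 by 0.52 ± 0.0840, Bst2 by 0.47 ± 0.0881, Ifi27 by 0.26 ± 0.0756 and B2m by 0.22 ± 0.0561.

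Among the factors, Irf7, which drives the late interferon alpha genes, stood at 44.3, 37.9, 36.8 and 36.7 CPM in OGDR, at 37.6, 47.9, 38.6 and 46.4 CPM in MSCs and at 47.1, 46.5, 55.4 and 48.4 CPM in rTMS-MSCs. OGDR and rTMS-MSCs did not overlap, and MSCs covered the range between. Irf7 rose by 0.34 ± 0.0929 against OGDR (adjusted p = 0.00783) without passing either step (adjusted p = 0.363 and adjusted p = 0.113). Irf3 likewise rose by 0.38 ± 0.0745 (adjusted p = 0.000562). Irf1, a short-lived factor induced by interferon gamma, stood at 120.5, 121 and 133 CPM and did not pass (0.15 ± 0.0589, adjusted p = 0.0630).

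Gbp2, a GTPase that attacks membranes of intracellular microbes, stood at 579, 582, 616 and 592 CPM in OGDR, at 626, 646, 616 and 670.0 CPM in MSCs and at 662, 666, 671 and 714 CPM in rTMS-MSCs. OGDR and rTMS-MSCs did not overlap, and MSCs 3 reached into the range of OGDR. Gbp2 rose by 0.20 ± 0.0468 (adjusted p = 0.00329). It belongs to a family of similar genes, of which Gbp5 stood at 150.3 and 158 CPM (adjusted p = 0.416) and Gbp4 at 21.7 and 22.8 CPM (adjusted p = 0.614), both named after their values were seen.

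Of the 6 antigen presentation members tested, none passed in MSCs against OGDR, 2 rose in rTMS-MSCs against MSCs (B2m and Tap1; 33.3%, against 18.1% of all tested genes called), and 1 rose in rTMS-MSCs against OGDR (B2m; 16.7%, against 32.4%). Psmb8 and Psmb9, the catalytic subunits that turn the proteasome into the immunoproteasome, averaged 137 and 92.7 CPM in MSCs. In rTMS-MSCs they averaged 158 and 107 CPM, without passing (0.20 ± 0.0737 with adjusted p = 0.0590, and 0.21 ± 0.0774 with adjusted p = 0.0608). Both were highest in rTMS-MSCs 3, at 183 and 128 CPM, and both passed with DESeq2. The constitutive subunits that the inducible ones replace rose in that step, Psmb5 by 0.26 ± 0.0881, Psmb6 by 0.29 ± 0.0886 and Psmb7 by 0.28 ± 0.0596 (adjusted p = 0.0435, 0.0306 and 0.00453). Psmb7 had fallen with stem cells (-0.17 ± 0.0596, adjusted p = 0.0438). In rTMS-MSCs against OGDR none of these constitutive subunits passed (adjusted p = 0.195, 0.263 and 0.179). The ratio of Psmb8 to Psmb5 counts was 0.917 ± 0.0210 in OGDR, 0.899 ± 0.0490 in MSCs and 0.864 ± 0.0456 in rTMS-MSCs (mean ± SD, n = 4), and that of Psmb9 to Psmb6 was 1.06 ± 0.0809, 1.08 ± 0.0303 and 1.03 ± 0.0283. Neither ratio was highest in the stimulated cells, and the ranges of the groups overlapped.

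The other members of this branch were flatter or scarce. Tap2, the partner of Tap1 in the transporter, averaged 122, 120.1 and 126 CPM, and no comparison passed (adjusted p = 0.865, 0.436 and 0.557). Tap1 and Psmb9 are transcribed away from each other from starts 457 bases apart in GRCr8, and their log2 fold changes were -0.06 and -0.12 with stem cells and 0.19 and 0.21 with stimulation. The class I heavy chain RT1-A2 was low, with 1.75, 2.37, 2.27 and 1.71 CPM in OGDR and 2.44, 3.32, 2.76 and 3.16 CPM in rTMS-MSCs. These groups did not overlap, and the difference did not pass (0.52 ± 0.223, adjusted p = 0.0794). Other class I genes, which are no members, ranged from at most 0.0974 CPM for RT1-CE3 to 62.5 to 74.2 CPM for RT1-S3. Both were named after their values were seen. RT1-CE16 averaged 36.6, 41.3 and 50.1 CPM in the 3 groups. It rose in rTMS-MSCs against OGDR (0.45 ± 0.105, adjusted p = 0.00254, QL test) without passing either step (adjusted p = 0.276 and 0.0670). A second row of that name ran from 1.41 to 3.95 CPM. Class I genes of the rat are near copies of each other, so the counts of any of them are uncertain. Tapbp, which docks class I molecules to the transporter, had 1 count in all 12 libraries together. Psmb10 was not analysed here.

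The members that could not be tested belong to the core of the pathway. Isg15, the ubiquitin-like protein that the pathway attaches to its targets, had 0 counts in every library, where 3 counts would be 0.145 to 0.162 CPM. Ifit1, a sensor of uncapped RNA, had 0 to 14 counts per library, and Irf9, the DNA-binding partner of Stat2, had 1 to 12. Ifit3, by contrast, stood at 290.0 CPM or more in every library. Ifit1bl, the paralog beside Ifit1, had 51 to 118 counts. These low counts do not show that the genes were silent, and the part of annotation and counting in them was not tested.

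A further 13 tested members passed in no comparison. They were Ifit2, Mx2, Oasl2, Ifi44, Parp9, Irf1, Ifih1, Dhx58, Sting1, Psmb8, Psmb9, Tap2 and RT1-A2. Among effectors, the RNA-binding protein Ifit2 averaged 145, 138 and 133 CPM in the 3 groups, and its smallest adjusted p was 0.320. Oasl2 averaged 239, 226 and 218 CPM (adjusted p = 0.0861 against OGDR). Ifi44, a cytoplasmic protein, averaged 46.5, 42.5 and 44.2 CPM. Parp9, a macrodomain protein that works with the ubiquitin ligase Dtx3l, averaged 85.4, 81.9 and 84.5 CPM (smallest adjusted p = 0.634). Dtx3l, transcribed away from Parp9 from a start 1214 bases off, averaged 48.9, 42.6 and 36.9 CPM and fell in rTMS-MSCs against OGDR (-0.41 ± 0.0897, adjusted p = 0.00176).

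Other genes of the pathway give the setting of these changes, from lists put together beside the members. Over all tested genes 11.6% rose and 8.63% fell with stem cells, 7.14% rose and 10.9% fell with stimulation, and each list's counts stand beside these shares. With stem cells 5 of 9 receptor and JAK-STAT genes rose and none fell (55.6% called, against 20.2% of all). The interferon gamma receptor chains Ifngr1 and Ifngr2 rose by 0.45 ± 0.0675 and 0.34 ± 0.0856, the type I receptor chain Ifnar1 by 0.19 ± 0.0656, Stat3 by 0.25 ± 0.0605 and the kinase Jak2 by 0.31 ± 0.102 (adjusted p = 4.78e-05, 0.00647, 0.0420, 0.00565 and 0.0366, QL test). With stimulation none of the 9 rose and 2 fell (22.2%, against 18.1% of all), Jak2 by 0.38 and the lambda receptor Ifnlr1 by 0.55. The ligands were scarce: of 8 with a row, 3 had no count and 2 were tested. Ifnb1, interferon beta, averaged 1.39, 0.716 and 1.47 CPM without passing (adjusted p = 0.0687 with stem cells and adjusted p = 0.0511 with stimulation). Interferon epsilon, Ifne, fell with stem cells from 3.91 to 1.75 CPM (-1.16 ± 0.256, adjusted p = 0.00243).

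Of 9 genes that restrain or extend the signal, 3 rose and 3 fell with stem cells (66.7%, against 20.2% of all tested genes called). Uba7, the enzyme that activates ISG15, rose by 0.62 ± 0.0750, the ligase Trim25 by 0.58 ± 0.125 and the phosphatase Ptpn6 by 0.34 ± 0.0954, while the feedback inhibitors Socs1 and Socs3 and the phosphatase Ptpn2 fell by 0.42, 0.30 and 0.36. Trim25 fell with stimulation (-0.66 ± 0.125, adjusted p = 0.00251). Of 12 tested sensing genes 1 rose with stem cells (8.33%), the kinase Ikbke (0.58 ± 0.129). With stimulation the DNase Trex1 rose by 0.43 ± 0.128, and the receptor Tlr4 and the adaptor Traf3 fell by 0.48 and 0.35. These 3 calls are 25% of the list, against 18.1% of all tested genes. Of 7 tested factors related to the IRF family, Batf2 fell with stem cells from 15.9 to 3.87 CPM and Irf2bpl rose by 0.24 ± 0.0694. That is 28.6% called, against 20.2% of all. Irf2bpl fell with stimulation (-0.22 ± 0.0695, adjusted p = 0.0347, QL test), the list's only call in that step (14.3%, against 18.1% of all).

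Among 45 other interferon-stimulated genes, 11 rose and 4 fell with stem cells, 6 rose and 4 fell with stimulation, and 16 rose and 5 fell in stimulated against untreated cells. These are 33.3%, 22.2% and 46.7% called, against 20.2%, 18.1% and 32.4% of all tested genes, so the share with stimulation is near the background. The chemokine Cxcl10 went from 3259 to 2425 CPM (-0.43 ± 0.0565, adjusted p = 9.60e-06) and to 2727 CPM with stimulation (0.17 ± 0.0564, adjusted p = 0.0435). Cxcl11, which shares the receptor of Cxcl10, fell with stem cells by 0.75 ± 0.103. In the other direction the signalling regulator Trafd1 rose by 0.42 ± 0.0599, the helicase Helz2 by 0.44 ± 0.0712 and the lysosomal reductase Ifi30 by 0.53 ± 0.0993. The membrane proteins Ifitm2 and Ifitm3, which hinder viral entry and were named after their values were seen, rose with stimulation (0.30 ± 0.0942 and 0.42 ± 0.109). Other genes of the list, also named after their values were seen, stood lower with stimulation. Znfx1 ran from 131 to 150 CPM in MSCs and from 95.8 to 121 CPM in rTMS-MSCs. Rnf213 ran from 514 to 597 and from 370 to 456 CPM, and Pml from 229 to 240 and from 191 to 219 CPM.

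Of 18 other genes of the MHC class I path, 1 rose and 1 fell with stem cells, and 5 rose and none fell with stimulation (11.1% and 27.8% called, against 20.2% and 18.1% of all tested genes). Those 5 were all proteasome genes, Psmb5, Psmb6 and Psmb7 and the activator subunits Psme1 (0.28 ± 0.0736) and Psme2 (0.21 ± 0.0662). With stem cells Pdia3 rose (0.13 ± 0.0432) and Psmb7 fell. In rTMS-MSCs against OGDR 3 of the 18 rose and none fell (16.7%, against 32.4% of all tested genes). Nlrc5, the activator of class I genes, averaged 15.9, 19.2 and 16.8 CPM without passing (adjusted p = 0.121 and adjusted p = 0.274). MHC class II genes were low, with 5 of 11 under 1 CPM, and Cd74, their invariant chain, averaged 1.49, 1.04 and 1.94 CPM. None of 8 tested passed in either step, and RT1-DMa and RT1-Db1 rose in stimulated against untreated cells (0.66 ± 0.121 and 0.66 ± 0.168). The summed class II level ran from 20.8 to 26.0 CPM in OGDR, from 23.2 to 31.3 CPM in MSCs and from 30.8 to 38.5 CPM in rTMS-MSCs.

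**Figure D5:**
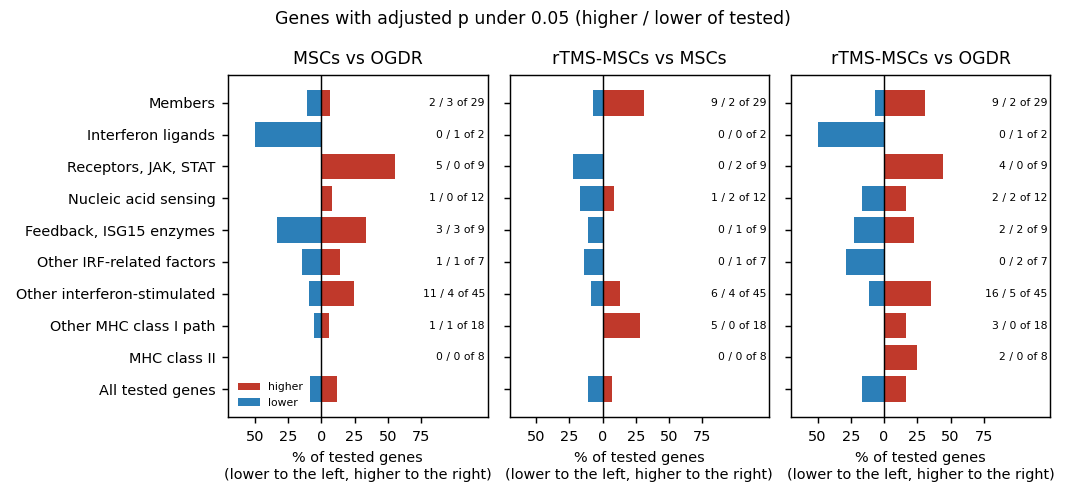
Share of tested genes with adjusted p under 0.05 (horizontal axis, in percent, higher to the right in red and lower to the left in blue) in the members, 8 related lists and all tested genes (vertical axis), for the 3 comparisons; numbers give higher / lower of tested. The members have 2 higher and 3 lower with stem cells and 9 higher and 2 lower with stimulation, and the receptor list has 5 higher with stem cells and none with stimulation.

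ISRE cores were found among members of each kind of change. Of the 9 members that rose with stimulation, all with a promoter entry, 6 held the core (B2m, Bst2, Ifi27, Ifit3, Oas1a and Tap1). The only falling member with an entry, Rsad2, held it, and so did 7 of the 14 members with an entry that did not pass. With stem cells, the core was in Oas1a, which rose, and in Ifit3, which fell, and not in Stat2 or Mx1.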

How the data were processed

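Messenger RNA of 12 libraries (3 groups of 4) was measured as raw counts per gene. Per the submitters' processing notes, the authors used HISAT2 2.1.0, HTSeq 0.11.2, DESeq2 1.40.1 and build mRatBN7.2 before the counts were deposited; the strand setting is not given in these sources. The 5 summary lines that name no gene were left out, and reads without a feature made up 51.73 to 52.71% of each library. Library totals were 18246250 to 20471838 counts, with 16707 to 16964 genes detected, so that 1 CPM stood for 18.5 to 20.7 counts.

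Genes were kept by edgeR's filterByExpr (minimum count 10, minimum total 15), scaled by TMM and tested with edgeR 4.0.16 (R 4.3.3) by the quasi-likelihood test. One model over the 12 libraries gave the 3 contrasts, with Benjamini-Hochberg adjustment over 13692 genes and a threshold of 0.05. The SE is the log2 fold change divided by the root of the F statistic. CPM used TMM-scaled library sizes. Alternatives were other scalings, DESeq2 1.42.0, limma 3.58.1 (voom with quality weights), other filters, robust shrinkage, 8 libraries, a replicate block and leaving out libraries. The fitting script was tested on simulated data. No 2 libraries held identical values.

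Members and lists were chosen with earlier results of these data known. All members are accounted for. From other lists, genes past the threshold in a comparison with a mean of at least 1 CPM were eligible for naming, at most 8 a list by smallest p, with 10 genes set regardless of value; those named after their values were seen are marked so. Promoters and spans came from RefSeq GRCr8, another build than that of the counts.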

Additional observations from a re-analysis of the deposited data

Results flagged for a closer look

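In groups of 4 libraries, 7 of 87 combinations of member and group had 1 library whose gap to the next, as a share of the group's range, passed Dixon's 95% critical value; chance flags about 1 in 20. In MSCs, MSCs 4 was high for Ifit3 at 348 CPM (others 290 to 297), for Parp9 at 91.2 CPM (others 77.6 to 79.4) and for Cgas at 9.3 CPM (others 8.34 to 8.46). MSCs 3 was low for Bst2 at 62.2 CPM (others 75.8 to 77.2). In OGDR, OGDR 1 was high for Irf7 at 44.3 CPM (others 36.7 to 37.9). In rTMS-MSCs, rTMS-MSCs 3 was high for Psmb8 at 183 CPM (others 148 to 151), and rTMS-MSCs 4 was high for Gbp2 at 714 CPM (others 662 to 671).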

How the results depend on the processing

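No member that passed in a comparison changed sign under any alternative. With 1 library left out, members called ran from 3 to 6 in MSCs against OGDR, from 4 to 13 in rTMS-MSCs against MSCs and from 10 to 16 in rTMS-MSCs against OGDR. Calls over all genes ran from 2243 to 2614, from 1006 (without MSCs 3) to 3196 (without rTMS-MSCs 4) and from 3461 to 4683. With MSCs 3 and rTMS-MSCs 3 both left out, 9 members were called with stem cells, and 3 members and 677 genes with stimulation; the cause was not tested. Other scalings moved the median of all genes by -0.0217 to 0.0149 on the log2 scale.

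With the replicate number as a replicate block, 5, 8 and 11 members and 2577, 1995 and 4185 genes were called; Oas1a, Irf3 and Tap1 were no longer called with stimulation (adjusted p = 0.0675, 0.0563 and 0.0588). The 12 correlations between same-numbered libraries ran from -0.205 to 0.128, 1 of them over 0.1, and 8 of 24 best matches shared a number. Between OGDR and MSCs they were 0.0287, 0.0871, 0.128 and 0.0837 for replicates 1 to 4. With rTMS-MSCs they were -0.0559, -0.00353, -0.174 and 0.0599 for OGDR, and 0.0322, -0.0339, -0.205 and -0.0203 for MSCs. Whether same-numbered libraries shared a culture or batch was not tested. Genes with few counts, such as Cgas, RT1-A2 and Sting1, are limited by depth.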
